A study of Mus musculus with 8 samples.

Results

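The axon guidance ligands and receptors are the secreted and membrane-bound cues, and the cell-surface proteins that read them, by which growing axons and migrating neurons find their way. The 69 genes described here were taken by symbol from the 24062 gene rows of the count tables: the semaphorins of classes 3 to 7, the plexins and the neuropilins Nrp1 and Nrp2, the Slits and Robos, the netrins with Dcc, Neo1 and the Unc5 receptors, and the Eph receptors with the ephrins. Levels were not used in choosing them. Of these 69 genes, 68 passed the filter on low counts and were tested, and Ntn5 did not.

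The RNA came from whole cerebella of mouse pups, dissected one pup at a time at postnatal day 2. Polyadenylated RNA was sequenced from 4 mutants, which carried Math1-Cre and, at Sufu, a floxed and a null allele, and from 4 littermate controls, which carried a floxed and a wild-type Sufu allele. Every pup had a Sufu flox/flox; Math1 mgfp/mgfp parent, so all carried a floxed Sufu allele and, by that cross, a Math1 mgfp allele, and the strain is given as C57BL/6 (mixed). The labels do not say whether any control carried Math1-Cre. Sufu encodes an inhibitor of Hedgehog signalling that holds the Gli transcription factors in check. Math1, also called Atoh1, is expressed in the rhombic lip and the granule cell precursors, so Cre acts in the granule cell lineage and in other rhombic lip derivatives, while Purkinje cells, glia, vessels and the other cells of the tissue keep the alleles they were born with. Titles also carry a letter, P for mutants 1 and 2 and controls 1 and 2, R for mutants 3 and 4 and controls 3 and 4, and what it stands for is not stated.

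Class 3 semaphorins are secreted and mostly act through a neuropilin bound to a plexin, while the semaphorins of classes 4 to 7 are held in the membrane and bind plexins directly. Slits are secreted repellents read by Robo receptors. Netrins attract axons through DCC and repel them through UNC5 receptors, and neogenin, the product of Neo1, binds both netrins and repulsive guidance molecules. Ephrins are anchored in the membrane, type A by a lipid and type B by a transmembrane segment, so that Eph receptors meet them at cell contacts, where both sides can signal. In the developing cerebellum these systems guide the migration of granule cell precursors and granule neurons, the routes of parallel fibres and the topography of incoming axons.

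Each library held between 21479565 and 26638284 counts in genes, of which the 69 genes made up 0.507 to 0.563% in mutants and 0.505 to 0.535% in controls. Sufu, measured at 31.7, 34.4, 36.8 and 39.8 CPM in mutants 1 to 4, against 47.7, 51.0, 55.9 and 60.7 CPM in controls 1 to 4, was lower in all 4 mutants than in any control. Sufu had a log2 fold change of -0.59 (SE 0.11, edgeR adjusted p = 0.381), with -0.58 within title letter P and -0.61 within R, while its DESeq2 adjusted p was 0.00115. The mutant libraries were unlike each other in ways that the genotype label does not describe. Mutant 4 stood apart in a score of 13 Hox genes, which mark hindbrain tissue behind the cerebellum: relative to the control mean the score was 0.13, -1.48, -0.58 and -3.96 on the log2 scale in mutants 1 to 4, against -0.43 to 0.48 in controls. Xist, which is expressed from the inactive X chromosome of females, was at 2197, 1.76, 1715 and 0.818 CPM in mutants 1 to 4, against 1449 to 2089 CPM in controls, so mutants 2 and 4 differed from the other 6 libraries. A low level was thus seen in mutants only. By this measure sex was unevenly divided between the genotypes, and the 2 cannot be fully told apart.

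Cell type markers also differed between libraries. All 8 listed markers of granule cell precursors had counts in every library and summed to 1186 to 2295 CPM in mutants and 1149 to 1363 CPM in controls, and the 10 markers of Purkinje cells summed to 749 to 1120.2 CPM in mutants and 657 to 938 CPM in controls, so the labelled tissue showed its defining genes in every library. The 11 markers of caudal hindbrain and cranial motor neurons summed to 6.32 to 121 CPM in mutants and 121 to 146 CPM in controls, lowest in mutant 4, and Mnx1 was the 1 marker of that list at 0 in a library. The 10 oligodendrocyte markers summed to 647 to 1254 CPM in mutants and 1255 to 1886 CPM in controls, again lowest in mutant 4, with none at 0. The 10 choroid plexus markers summed to 3429.7 to 6013 CPM in mutants and 1358 to 3155 CPM in controls, and the 10 endothelial and pericyte markers to 332 to 468 CPM in mutants and 293 to 366 CPM in controls. The 6 GABAergic interneuron markers summed to 322 to 491 CPM in mutants and 461 to 614 CPM in controls, with 0 of 6 higher in mean, and the 7 markers of differentiating granule neurons to 685 to 1003 CPM in mutants and 556 to 702 CPM in controls, with 6 of 7 higher in mean. The part these mixtures played in the levels below was not tested, and in tissue of this kind fewer cells of a type and less RNA per cell cannot be told apart.

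The guidance genes were expressed over a wide range. Divided by the length of each gene's merged exons in the GENCODE vM21 basic annotation, which stands in for the authors' unstated one, the highest level belonged to Plxnb2, the plexin-B2 receptor of granule cell precursors, at 81.8 ± 16.6 CPM per kb in mutants and 64.8 ± 3.09 in controls (SD, n = 4 each). Next came Sema7a, a lipid-anchored semaphorin bound by plexin-C1, at 53.9 ± 14.2 CPM per kb in mutants and 45.6 ± 6.99 in controls. Neo1 followed at 48.6 ± 4.44 CPM per kb in mutants and 43.3 ± 2.06 in controls, and then Efnb3, a transmembrane ephrin, at 34.1 ± 6.49 CPM per kb in mutants and 40.0 ± 2.95 in controls. Thus 1 plexin, 1 semaphorin, 1 netrin receptor and 1 ephrin led their families in both groups, each with no overlap in controls with the next gene of its family. Among the Robos the order was Robo2, Robo1 and Robo3, with means of 24.4, 16.7 and 0.999 CPM per kb in mutants and 22.3, 17.2 and 1.11 in controls, and no neighbours in that order overlapped in controls. Among the Slits it was Slit1, Slit2 and Slit3, with means of 5.98, 4.51 and 3.05 CPM per kb in mutants and 8.26, 4.46 and 2.98 in controls, again without overlap of neighbours in controls. Class 3 was led by Sema3a, the classical ligand of neuropilin-1, at 10.1 ± 2.10 CPM per kb in mutants and 10.5 ± 1.04 in controls, with Sema3f, the ligand of neuropilin-2, overlapping Sema3c but not Sema3a. Among EphA receptors Epha10 led by this measure, at 15.4 ± 4.41 CPM per kb in mutants and 22.1 ± 2.84 in controls. That rank rests on a length of 2.544 kb for Epha10, the shortest among the EphA receptors. Not divided by length, its control mean was 56.1 CPM, below 94.4 for Epha5, 82.5 for Epha4 and 61.0 for Epha7. Epha1 came last at 0.400 ± 0.0370 CPM per kb in mutants and 0.517 ± 0.117 in controls, while Epha4, Epha8, Epha5 and Epha7 overlapped their neighbours in controls.

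The stretch around the transcription start is shown for the genes with values in every library given here whose RefSeq window holds the core of the binding motif of Gli factors, the transcription factors that Sufu restrains. Windows on GRCm38.p6, from 250 bases before to 50 after an annotated start, were found for 59 of the 69 genes. The full motif GACCACCCA, or its reverse complement TGGGTGGTC, was in the window of 0 of these 59 genes, against 0.289% of 27025 genes in the table. Its core CCACCCA, which lies inside the full motif, or the reverse complement TGGGTGG, was in 7 of the 59 (11.9%), against 10.6% of all genes, and the 7 were Plxna2, Robo2, Sema3c, Sema3g, Sema4a, Sema5a and Sema6c. The windows are chr1:194619579-194619878 on the plus strand, chr16:75092721-75093020 on the minus strand and chr5:17574566-17574865 on the plus strand. Each is written 5' to 3' on the gene's own strand, with the core or its reverse complement in capitals.
Plxna2: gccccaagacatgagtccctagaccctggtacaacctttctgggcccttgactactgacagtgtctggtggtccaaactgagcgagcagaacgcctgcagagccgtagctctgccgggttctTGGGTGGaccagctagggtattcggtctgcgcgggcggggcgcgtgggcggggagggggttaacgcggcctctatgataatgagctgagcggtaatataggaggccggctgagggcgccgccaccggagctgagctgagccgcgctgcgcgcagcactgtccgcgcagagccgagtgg
Robo2: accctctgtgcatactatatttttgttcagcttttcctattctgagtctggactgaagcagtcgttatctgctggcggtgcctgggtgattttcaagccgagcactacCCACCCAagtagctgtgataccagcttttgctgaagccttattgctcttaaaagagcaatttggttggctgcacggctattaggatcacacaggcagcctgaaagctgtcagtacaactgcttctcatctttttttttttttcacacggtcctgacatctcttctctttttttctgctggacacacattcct
Sema3c: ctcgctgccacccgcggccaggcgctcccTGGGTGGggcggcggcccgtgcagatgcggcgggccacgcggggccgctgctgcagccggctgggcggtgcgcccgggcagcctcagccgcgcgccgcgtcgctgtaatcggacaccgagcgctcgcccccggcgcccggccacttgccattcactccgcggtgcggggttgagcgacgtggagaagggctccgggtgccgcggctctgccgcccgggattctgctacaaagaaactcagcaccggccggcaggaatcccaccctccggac
The match is TGGGTGG in Plxna2 and Sema3c and CCACCCA in Robo2. A match describes letters and is not a binding site.

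In the comparison of mutant with control cerebella, none of the 68 tested guidance genes passed edgeR's adjusted p of 0.05, and across all 15789 genes the share past it was 0% as well. DESeq2 called 51 of 15298 genes (0.333%), 0.261% higher and 0.0719% lower, and none of the 68, its smallest adjusted p among them being 0.129 for Dcc. At an unadjusted edgeR p under 0.05 there were 11 of the 68 (16.2%), against 12.6% of all genes. Of these, 5 were higher in mutants (7.35%, against 6.94% of all genes): the netrin receptors Dcc and Unc5b, the Eph receptor Epha2, the semaphorin Sema6a and the plexin Plxnb2. The other 6 were lower (8.82%, against 5.7%): Epha10, Ephb6, Sema4d, Efna3, Ntn3 and Plxnb3. Both shares lay near those of all genes.

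These counts rested on single libraries, and the shares over all genes moved as well in most of these settings, though little without control 2. Guidance values below are numbers of genes, out of 68 in the main fit, while values over all genes are percentages. They are not on one scale. They became 10 higher and 14 lower without mutant 1 (against 9.52% and 10.5% of all genes), 1 higher and 2 lower without mutant 4 (against 3.01% and 3.54% of all genes), and 1 higher and 2 lower without control 1 (against 3.7% and 3.58% of all genes). Leaving out control 2 gave 2 higher (against 6.4% of all genes), and leaving out control 3 or control 4 gave 3 lower (against 3.04% and 4.78%). With the Hox score as a covariate 1 gene was higher, Dcc at an unadjusted p of 0.0484, and none was lower (against 1.33% and 0.95% of all genes). With Xist as a covariate there were 0 in either direction (against 1.12% and 0.716% of all genes). With the letter fitted as a block, 10 of the 68 were higher and 9 of the 68 lower. Over all 15789 genes these were 1561 and 1418 (9.89% and 8.98%), smaller shares than among the 68. Of the 28 guidance and other pathway genes named with a fold change and alternatives, the fold change of 15 moved by over 1.5 times when 1 library was left out, that of 22 with the Hox covariate and that of 15 with the Xist covariate. Nrp2, Plxna4, Epha4 and Efnb3, added after their values were seen, are not among these 28. Over all 68 genes the mean was higher in mutants for 32 (47.1%, against 52.3% of all genes) and lower for 36, with a median log2 fold change of -0.013 beside 0.012 for all genes tested.

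**Figure D1:**
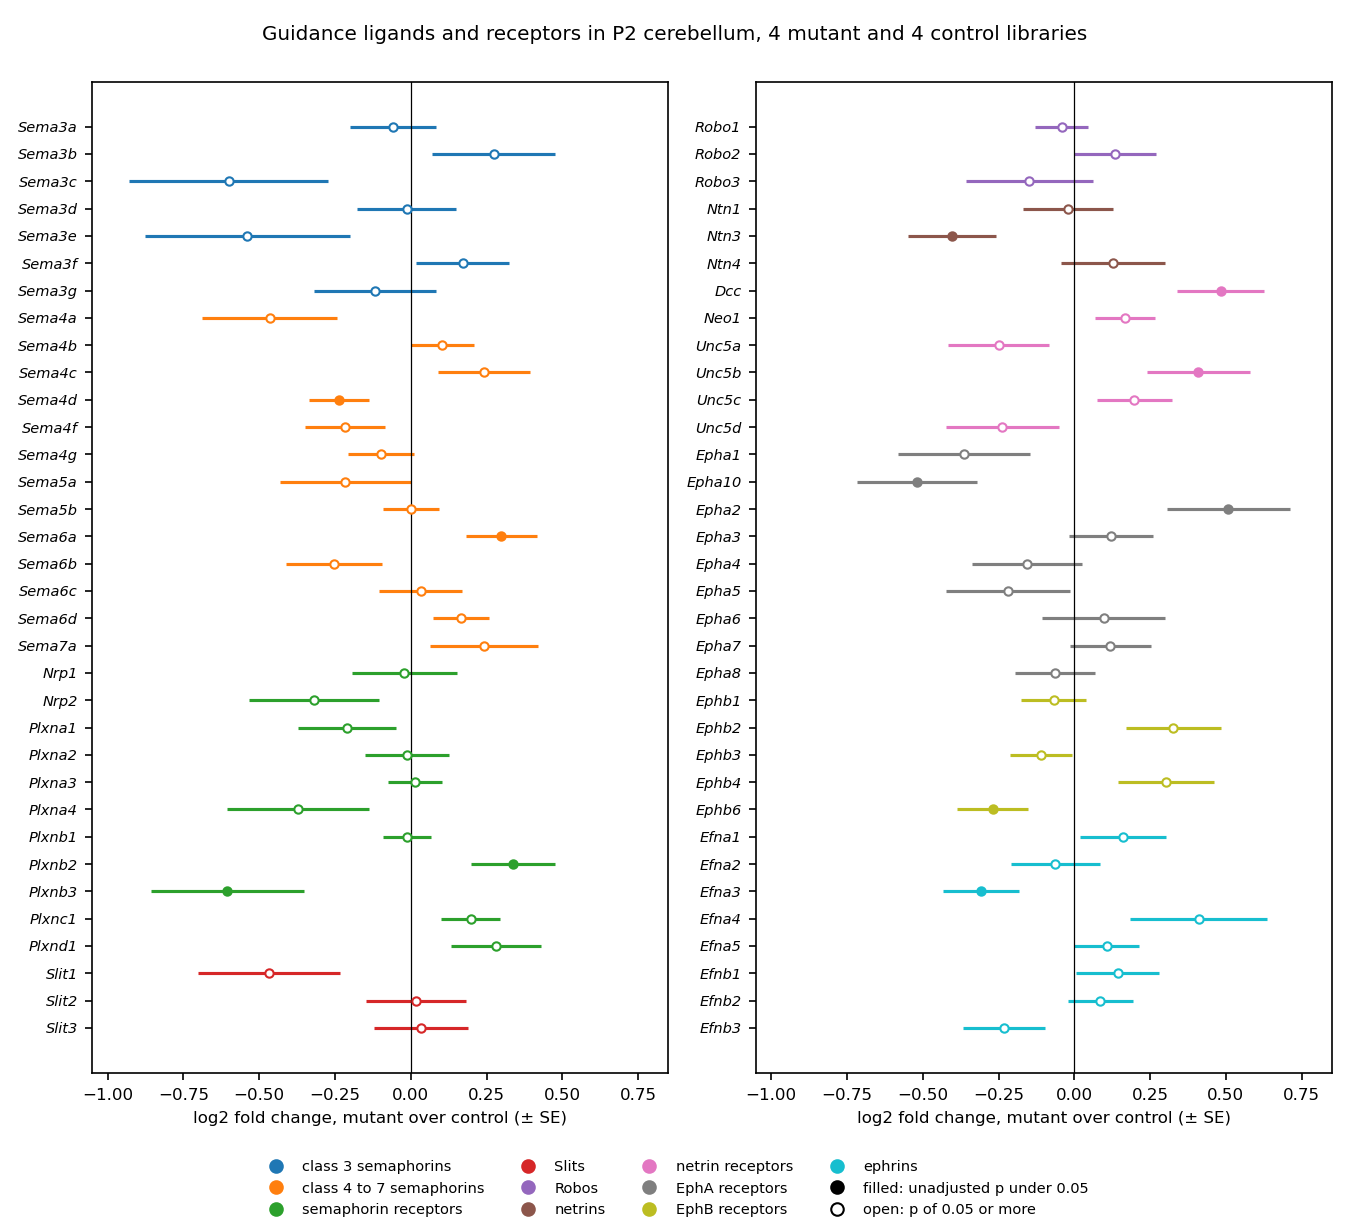
Log2 fold change, mutant over control, for the 68 tested guidance genes, grouped and coloured by family, with bars of 1 SE from edgeR. Filled points have an unadjusted p under 0.05, and these 11 fall on both sides of 0, between -0.61 for Plxnb3 and 0.51 for Epha2.

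Complete separation of the libraries was seen for 1 gene. Sema4d had 4 mutants that all lay to one side of the 4 controls, below them, which is 1.47% of the 68 genes against 2.96% of all genes for that direction, while none lay wholly above, against 3.6% of all genes, or 6.57% for both directions. Leaving out a library loosens this criterion. The number wholly above became 5 without mutant 1, 6 without mutant 3 and 1 without control 1, 2 or 3. The number wholly below became 5 without mutant 1, 3 without mutant 2, 2 without control 1 and 6 without control 2. No shares over all genes are given for these settings, so these counts cannot be set against a background.

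**Figure D2:**
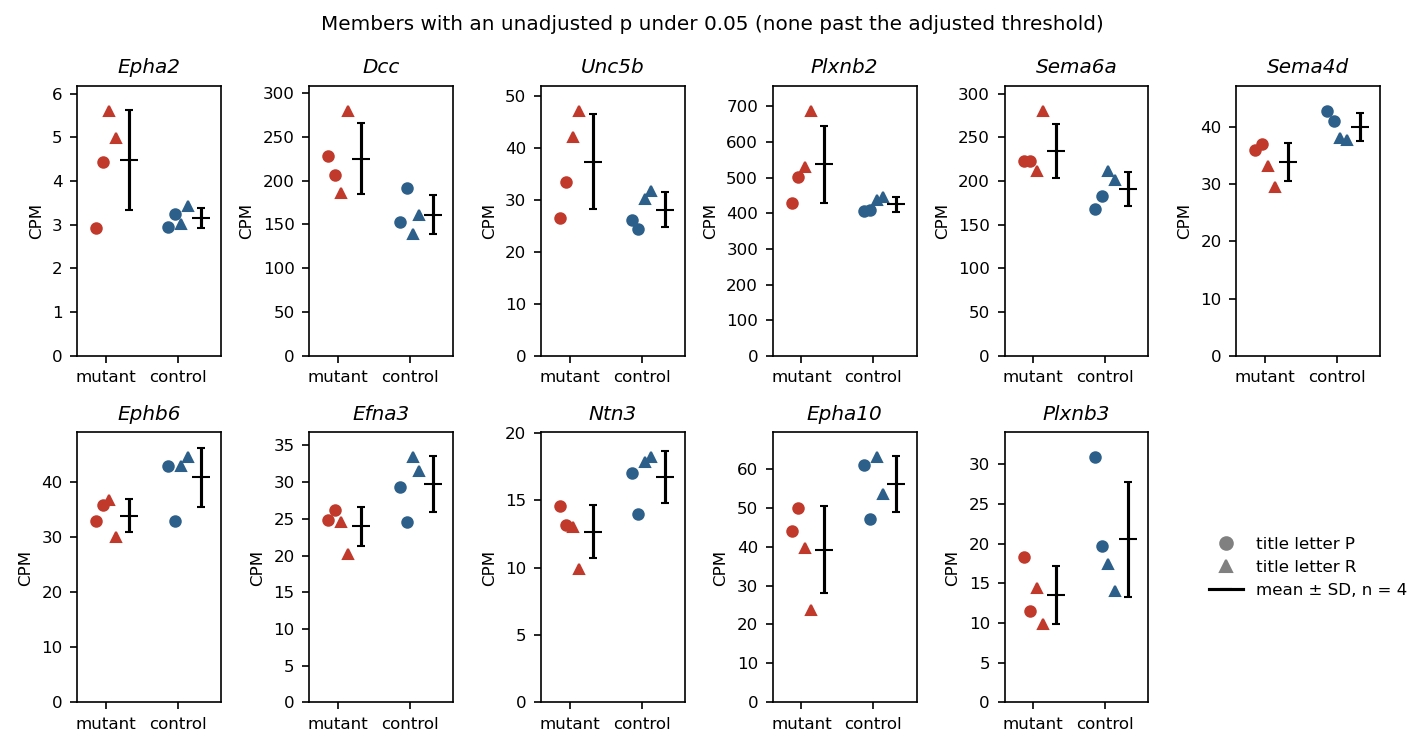
Level in CPM of each of the 11 genes with an unadjusted p under 0.05, in 4 mutant and 4 control libraries, circles for title letter P and triangles for R, with the mean and SD beside them and every axis starting at 0. The groups overlap in every panel but that of Sema4d, where mutants lie between 29.5 and 36.9 CPM and controls between 37.7 and 42.8 CPM.

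Among the secreted class 3 semaphorins, 2 of 7 had a higher mean in mutants and 5 a lower one, and none had an unadjusted p under 0.05. The family's median log2 fold change was -0.058, ranging from -0.11 (without control 4) to 0.0083 (without control 1) with 1 library left out. The smallest p belonged to Sema3c (chromosome 5), a neuropilin ligand whose start is printed above, measured at 31.0, 28.7, 21.8 and 9.07 CPM in mutants 1 to 4, against 44.1, 40.7, 24.5 and 27.6 CPM in controls 1 to 4. Mutant 4 was far below the other libraries, and the R controls were also below the P controls. Sema3c had a log2 fold change of -0.60 (SE 0.33, edgeR adjusted p = 0.436), with -0.51 within title letter P and -0.76 within R. The value for Sema3c was -0.34 without mutant 4, -0.27 with the Hox covariate and -0.33 with the Xist covariate. Sema3e (chromosome 5), which binds plexin-D1 without a neuropilin, was measured at 16.5, 12.3, 9.64 and 3.57 CPM in mutants 1 to 4, against 15.1, 14.4, 14.9 and 16.5 CPM in controls 1 to 4. Here the controls lay close together, mutant 1 reached the top of their range and mutants 2, 3 and 4 lay below it. Sema3e had a log2 fold change of -0.54 (SE 0.34, edgeR adjusted p = 0.484), with -0.036 within title letter P and -1.26 within R. The value for Sema3e was -0.85 without mutant 1, -0.25 without mutant 4, -0.017 with the Hox covariate and -0.20 with the Xist covariate. Its SD on the log2 scale was 0.95 over mutants and 0.084 over controls. Sema3b, Sema3f and Sema3d had log2 fold changes of 0.27, 0.17 and -0.014, while the mean of Sema3a was 62.9 ± 13.1 CPM in mutants and 65.4 ± 6.47 CPM in controls (SD, n = 4 each). Sema3g, found mainly in vessels, stayed under 6 CPM in every library.

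Among the membrane-held semaphorins of classes 4 to 7, 7 of 13 had a higher mean in mutants and 6 a lower one. Their median log2 fold change was 9.4e-05, ranging from -0.075 (without control 2) to 0.042 (without control 4) with 1 library left out. Sema6a (chromosome 18), a transmembrane ligand of plexin-A2 and plexin-A4 that acts in granule cell migration, was measured at 222, 223, 212 and 281 CPM in mutants 1 to 4, against 167, 182, 212 and 201 CPM in controls 1 to 4. Mutants 1, 2 and 4 lay above every control and mutant 3 lay at the level of the highest one. Sema6a had a log2 fold change of 0.30 (SE 0.12, edgeR adjusted p = 0.386), with 0.35 within title letter P and 0.25 within R. The value for Sema6a was 0.20 without mutant 4, 0.19 with the Hox covariate and 0.18 with the Xist covariate. Sema4d (chromosome 13), a plexin-B1 ligand known from oligodendrocytes, was measured at 35.9, 36.9, 33.2 and 29.5 CPM in mutants 1 to 4, against 42.8, 41.0, 38.1 and 37.7 CPM in controls 1 to 4. All 4 mutants were below all 4 controls, with a narrow gap. Sema4d had a log2 fold change of -0.24 (SE 0.10, edgeR adjusted p = 0.392), with -0.20 within title letter P and -0.27 within R, and the oligodendrocyte markers, given above, were lower in mean in 9 of 10 cases. Their part in the level of Sema4d was not tested. Within letter R, Sema4a and Sema5a had log2 fold changes of -0.91 and -0.55, against -0.10 and 0.013 within P. Sema7a averaged 178 ± 47.0 CPM in mutants and 150.3 ± 23.1 CPM in controls (SD, n = 4 each), and Sema5b, with a log2 fold change of 9.4e-05, averaged 41.0 ± 2.49 CPM in mutants and 41.0 ± 3.12 CPM in controls (SD, n = 4 each).

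Of the 11 semaphorin receptors, 4 had a higher and 7 a lower mean in mutants, with a median log2 fold change of -0.012, ranging from -0.13 (without mutant 1) to 0.050 (without mutant 3) with 1 library left out. Plxnb2 (chromosome 15), whose product is needed for granule cell precursors to form an orderly layer, was measured at 429.9, 502, 529 and 688 CPM in mutants 1 to 4, against 405, 411, 439 and 446 CPM in controls 1 to 4. The controls kept to a narrow range and 3 of 4 mutants lay above it, mutant 4 furthest. Plxnb2 had a log2 fold change of 0.34 (SE 0.14, edgeR adjusted p = 0.390), with 0.19 within title letter P and 0.46 within R. The value for Plxnb2 was 0.19 without mutant 4, 0.12 with the Hox covariate and 0.16 with the Xist covariate. The granule cell precursor markers were also highest in mutant 4, as given above, and their part in the level of Plxnb2 was not tested. Plxnb3 (chromosome X), a Sema5a receptor of the oligodendrocyte lineage, was measured at 18.3, 11.6, 14.4 and 9.89 CPM in mutants 1 to 4, against 30.9, 19.7, 17.4 and 14.1 CPM in controls 1 to 4. Control 1 was high, mutants 2 and 4 lay below every control, and mutants 1 and 3 lay within their range. Plxnb3 had a log2 fold change of -0.61 (SE 0.25, edgeR adjusted p = 0.392), with -0.76 within title letter P and -0.38 within R. The value for Plxnb3 was -0.34 without control 1 and -0.33 with the Xist covariate. The part of the oligodendrocyte markers in the level of Plxnb3 was not tested either. Nrp2, the receptor subunit for Sema3f, was measured at 85.9, 84.9, 57.2 and 38.0 CPM in mutants 1 to 4, against 85.7, 82.0, 85.4 and 78.6 CPM in controls 1 to 4. Mutants 1 and 2 reached the control range or stood just above it, while mutants 3 and 4 were below it. Nrp2 had a log2 fold change of -0.32 (SE 0.21, edgeR adjusted p = 0.509), with 0.026 within title letter P and -0.79 within R. It was -0.023 with the Hox covariate and -0.19 with the Xist covariate. Plxna4, a receptor for Sema6a and, with neuropilin-1, for Sema3a, was measured at 135, 100.1, 74.4 and 50.9 CPM in mutants 1 to 4, against 119, 112, 109 and 127 CPM in controls 1 to 4. Mutant 1 was above every control and the other 3 mutants were below every one. Plxna4 had a log2 fold change of -0.37 (SE 0.23, edgeR adjusted p = 0.487), with 0.029 within title letter P and -0.91 within R. It was -0.033 with the Hox covariate and -0.14 with the Xist covariate. Nrp2 and Plxna4 were added after their values were seen. An antisense gene, Plxna4os1, is listed beside Plxna4, and whether reads were assigned by strand is not stated. Log2 fold changes of Plxnb1, Plxna3 and Nrp1 were -0.012, 0.014 and -0.021.

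Slits and Robos gave no gene with an unadjusted p under 0.05. Means were higher in mutants for 2 of 3 Slits and 1 of 3 Robos. The Slit median log2 fold change was 0.017, ranging from -0.13 (without mutant 2) to 0.091 (without mutant 4) with 1 library left out. The Robo median was -0.042, ranging from -0.10 (without mutant 2) to 0.0089 (without mutant 3) with 1 library left out. Slit1 (chromosome 19), a repellent of neuronal origin, was measured at 41.9, 46.1, 33.2 and 18.4 CPM in mutants 1 to 4, against 54.9, 41.8, 52.6 and 43.9 CPM in controls 1 to 4. Mutants 3 and 4 lay below every control and mutants 1 and 2 within or at the edge of their range. Slit1 had a log2 fold change of -0.47 (SE 0.23, edgeR adjusted p = 0.413), with -0.13 within title letter P and -0.91 within R. The value for Slit1 was -0.26 without mutant 4 and -0.14 with the Hox covariate. Slit3 (chromosome 11) was measured at 15.5, 19.0, 15.4 and 13.9 CPM in mutants 1 to 4, against 16.0, 13.7, 19.6 and 13.0 CPM in controls 1 to 4, and the groups overlapped throughout. Slit3 had a log2 fold change of 0.033 (SE 0.15, edgeR adjusted p = 0.938), with 0.21 within title letter P and -0.15 within R, a value whose sign turned without mutant 2, control 2 or control 4 and with Xist as a covariate. The value for Slit3 ran from -0.082 (without mutant 2) to 0.16 (without control 3) with 1 library left out, and was 0.11 with the Hox covariate and -0.0029 with the Xist covariate. Robo2 (chromosome 16), a main Slit receptor whose start is printed above, was measured at 254, 232, 163 and 222 CPM in mutants 1 to 4, against 180.4, 192, 204 and 217 CPM in controls 1 to 4. Mutants 1, 2 and 4 were above every control and mutant 3 below every one. Robo2 had a log2 fold change of 0.14 (SE 0.13, edgeR adjusted p = 0.656), with 0.39 within title letter P and -0.13 within R. The value for Robo2 ran from 0.043 (without mutant 1) to 0.25 (without mutant 3) with 1 library left out, and was 0.078 with the Xist covariate. Robo3 (chromosome 9), which in mammals steers hindbrain and spinal axons across the midline, was measured at 4.24, 7.69, 4.20 and 4.31 CPM in mutants 1 to 4, against 5.96, 5.07, 5.85 and 5.77 CPM in controls 1 to 4. Mutant 2 alone was high, and the other 3 mutants were below every control. Robo3 had a log2 fold change of -0.15 (SE 0.21, edgeR adjusted p = 0.762), with 0.11 within title letter P and -0.45 within R. The value for Robo3 ran from -0.43 (without mutant 2) to -0.066 (without mutant 3) with 1 library left out, and was -0.39 with the Xist covariate. For Robo1 the mean was 126 ± 10.2 CPM in mutants and 129.8 ± 5.61 CPM in controls (SD, n = 4 each).

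Of the 3 tested netrins 1 had a higher mean in mutants and 2 a lower one, with a median log2 fold change of -0.021, ranging from -0.12 (without control 4) to 0.12 (without control 1) with 1 library left out. Ntn1, the main netrin ligand of DCC, averaged 89.9 ± 8.95 CPM in mutants and 91.1 ± 20.6 CPM in controls (SD, n = 4 each), and had a log2 fold change of -0.021. Ntn3 was measured at 14.6, 13.2, 13.0 and 9.92 CPM in mutants 1 to 4, against 16.999, 13.97, 17.9 and 18.2 CPM in controls 1 to 4. Mutants 2, 3 and 4 were below every control and mutant 1 was above the lowest one. Ntn3 had a log2 fold change of -0.40 (SE 0.14, edgeR adjusted p = 0.381), with -0.16 within title letter P and -0.65 within R, but its exon bins are joined with those of the neighbouring Tbc1d24, so reads of the pair may not be separable. For Ntn3 the Hox covariate gave -0.21. Ntn4 (chromosome 10), a laminin-like netrin of basement membranes, was measured at 10.7, 10.7, 13.9 and 18.0 CPM in mutants 1 to 4, against 12.2, 11.05, 13.1 and 12.6 CPM in controls 1 to 4. Mutants 3 and 4 were above every control and mutants 1 and 2 below every one. Ntn4 had a log2 fold change of 0.13 (SE 0.17, edgeR adjusted p = 0.750), with -0.11 within title letter P and 0.31 within R. The value for Ntn4 ran from -0.056 (without mutant 4) to 0.21 (without mutant 1) with 1 library left out, and was -0.10 with the Hox covariate and -0.0079 with the Xist covariate. Ntn5 held 3 to 8 reads per mutant library and 5 to 15 per control library, too few to test.

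The netrin receptors had the highest family median, 0.18, ranging from 0.091 (without mutant 4) to 0.24 (without mutant 3) with 1 library left out, with 4 of 6 means higher in mutants. Dcc (chromosome 18), the receptor for attraction to netrin-1, was measured at 228, 206, 186 and 279.9 CPM in mutants 1 to 4, against 152, 192, 139 and 161 CPM in controls 1 to 4. Mutants 1, 2 and 4 were above every control, and mutant 3 was above 3 of 4 controls. Dcc had a log2 fold change of 0.48 (SE 0.14, edgeR adjusted p = 0.381), with 0.34 within title letter P and 0.63 within R, and it averaged 225 ± 40.5 CPM in mutants and 161 ± 22.2 CPM in controls as mean ± SD. The Dcc log2 fold change was 0.36 without mutant 4 and 0.31 with the Hox score as a covariate. Unc5b (chromosome 10), a repulsive receptor that is also prominent in vessels, was measured at 26.6, 33.5, 42.2 and 47.2 CPM in mutants 1 to 4, against 26.2, 24.5, 30.2 and 31.8 CPM in controls 1 to 4. Mutants 2, 3 and 4 were above every control and mutant 1 was among them. Unc5b had a log2 fold change of 0.41 (SE 0.17, edgeR adjusted p = 0.392), with 0.25 within title letter P and 0.53 within R. The value for Unc5b was 0.27 without mutant 4, 0.22 with the Hox covariate and 0.27 with the Xist covariate. The endothelial and pericyte markers were likewise highest in mutants 2, 3 and 4, with all 10 higher in mean, and their part in the level of Unc5b was not tested. Summed over the 6 receptors, levels were 896, 832, 783 and 1014 CPM in mutants 1 to 4, against 737, 772, 739 and 785 CPM in controls 1 to 4, and mutants 1, 2 and 4 exceeded every control. Unc5c, whose loss in mice disorganises the rostral border of the cerebellum, had a log2 fold change of 0.20. Those of Neo1, Unc5a and Unc5d were 0.17, -0.25 and -0.24.

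Among the 9 EphA receptors 4 means were higher and 5 lower in mutants, and the median log2 fold change was -0.064, ranging from -0.16 (without control 2) to 0.030 (without control 3) with 1 library left out. Epha2 (chromosome 4), best known from epithelia and progenitor cells, was measured at 2.93, 4.43, 5.61 and 4.98 CPM in mutants 1 to 4, against 2.94, 3.24, 3.02 and 3.43 CPM in controls 1 to 4. It was a weakly expressed gene, and mutants 2, 3 and 4 were above every control. Epha2 had a log2 fold change of 0.51 (SE 0.20, edgeR adjusted p = 0.386), with 0.25 within title letter P and 0.72 within R. Epha10 (chromosome 4), a receptor whose kinase domain lacks catalytic activity, was measured at 43.9, 49.8, 39.6 and 23.6 CPM in mutants 1 to 4, against 60.9, 47.1, 63.0 and 53.6 CPM in controls 1 to 4. Mutant 4 was far below all other libraries, mutants 1 and 3 were below every control and mutant 2 was inside their range. Epha10 had a log2 fold change of -0.52 (SE 0.20, edgeR adjusted p = 0.381), with -0.20 within title letter P and -0.89 within R. The value for Epha10 was -0.34 without mutant 4 and -0.23 with the Hox covariate. Epha4, which can bind ephrins of both types, was measured at 89.3, 91.4, 51.3 and 64.5 CPM in mutants 1 to 4, against 70.4, 82.5, 78.2 and 99.1 CPM in controls 1 to 4. Mutants 3 and 4 were below every control and mutants 1 and 2 were inside the range. Epha4, added after its values were seen, had a log2 fold change of -0.16 (SE 0.18, edgeR adjusted p = 0.707), with 0.24 within title letter P and -0.61 within R. It was -0.055 with the Hox covariate and -0.21 with the Xist covariate. Log2 fold changes of Epha7, Epha3 and Epha8 were 0.12, 0.12 and -0.064.

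Of 5 EphB receptors 2 had a higher mean in mutants, with a family median log2 fold change of -0.068, ranging from -0.13 (without control 2) to -0.0043 (without control 3) with 1 library left out. Ephb6 (chromosome 6), the other catalytically inactive Eph receptor, was measured at 32.9, 35.8, 36.8 and 30.1 CPM in mutants 1 to 4, against 43.0, 33.0, 43.0 and 44.6 CPM in controls 1 to 4. Control 2 was low and lay among the mutants, while the other 3 controls were above all of them. Ephb6 had a log2 fold change of -0.27 (SE 0.12, edgeR adjusted p = 0.392), with -0.14 within title letter P and -0.39 within R. For Ephb6 the Hox covariate gave -0.18. Ephb2 (chromosome 4), a receptor for type B ephrins, was measured at 108, 127, 139.6 and 167 CPM in mutants 1 to 4, against 94.1, 88.4, 122 and 128 CPM in controls 1 to 4. Mutants 3 and 4 were above every control, and the R controls were above the P controls. Ephb2 had a log2 fold change of 0.33 (SE 0.16, edgeR adjusted p = 0.402), with 0.36 within title letter P and 0.30 within R. The value for Ephb2 was 0.21 without mutant 4, 0.18 with the Hox covariate and 0.18 with the Xist covariate. Ephb4, the vascular receptor for ephrin-B2, averaged 32.6 ± 7.24 CPM in mutants and 26.5 ± 2.72 CPM in controls (SD, n = 4 each).

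The 8 ephrins had a median log2 fold change of 0.10, ranging from 0.046 (without mutant 2) to 0.13 (without control 3) with 1 library left out, with 5 means higher in mutants and 3 lower. Efna3 (chromosome 3) was measured at 24.9, 26.2, 24.6 and 20.2 CPM in mutants 1 to 4, against 29.3, 24.6, 33.4 and 31.5 CPM in controls 1 to 4. Control 2 lay among the mutants and the other controls above them. Efna3 had a log2 fold change of -0.31 (SE 0.12, edgeR adjusted p = 0.387), with -0.076 within title letter P and -0.54 within R. For Efna3 the Hox covariate gave -0.17. Its neighbour Efna4 (chromosome 3) was measured at 4.46, 5.07, 7.43 and 9.63 CPM in mutants 1 to 4, against 5.03, 4.996, 5.03 and 4.98 CPM in controls 1 to 4. The 4 controls were almost equal, mutants 1 and 2 were close to them and mutants 3 and 4 were above them. Efna4 had a log2 fold change of 0.41 (SE 0.23, edgeR adjusted p = 0.438), with -0.073 within title letter P and 0.77 within R. The value for Efna4 was 0.17 without mutant 4, 0.072 with the Hox covariate and 0.22 with the Xist covariate. Efnb3, a ligand that stops axons at the midline, was measured at 126, 123.1, 103 and 81.6 CPM in mutants 1 to 4, against 132, 117, 138 and 122.5 CPM in controls 1 to 4. Mutants 3 and 4 were the lowest libraries. Efnb3, added after its values were seen, had a log2 fold change of -0.23 (SE 0.13, edgeR adjusted p = 0.457), with 0.0013 within title letter P and -0.50 within R. It was -0.045 with the Hox covariate and -0.14 with the Xist covariate. Efnb1 and Efnb2 had log2 fold changes of 0.14 and 0.086.

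The mutant libraries also differed among themselves in these genes. The median SD of log2 CPM over the 68 genes was 0.27 in mutants and 0.16 in controls, against 0.21 in mutants and 0.16 in controls for all genes tested. Mutant 1 had 19 of the 68 genes above the range of the 4 controls and 13 below it, and mutant 2 had 24 above and 9 below. Mutant 3 had 14 above and 30 below, and mutant 4 had 23 above and 27 below. Across all genes the share below was 24.3, 21.5, 24.4 and 30.8% in mutants 1 to 4, while among the 68 it was 19.1, 13.2, 44.1 and 39.7%. Among the guidance genes the share below the control range was thus highest in the R mutants, mutants 3 and 4, and this contrast was not tested. The 6 markers of cerebellar nuclei and unipolar brush cells summed to 246, 221, 167 and 112 CPM in mutants 1 to 4, against 238, 222, 244 and 232 CPM in controls 1 to 4, lowest in the same 2 mutants, with 2 of 6 higher in mean. In the other direction, the 8 markers of granule cell precursors summed to 1186, 1526, 1716 and 2295 CPM in mutants 1 to 4. Controls 1 to 4 were at 1164, 1149, 1344 and 1363 CPM. These markers were thus highest in the same mutants, with all 8 higher in mean. The part of either list in the guidance genes below the control range was not tested.

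**Figure D3:**
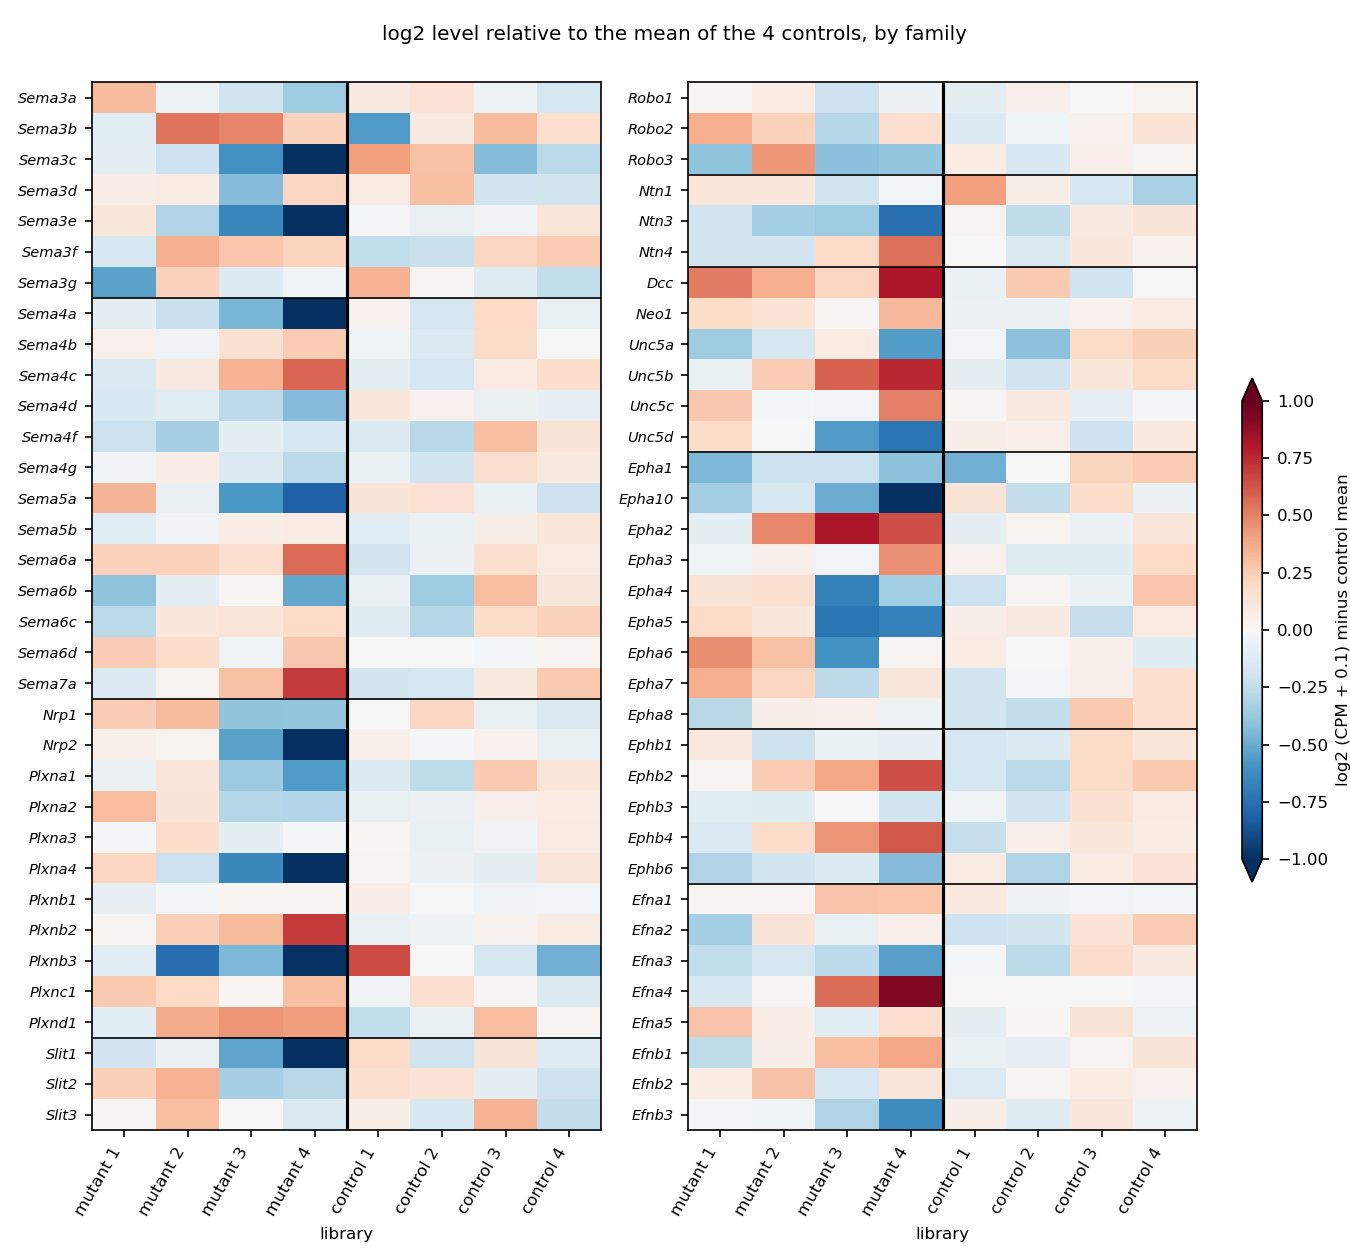
Level of the 68 tested guidance genes in each library on the log2 scale, less the mean of the 4 controls, mutants left of the black line and controls right of it, with lines between families; colours saturate at a difference of 1. Mutants 3 and 4 hold most of the deep blue cells, among them Sema3e, Nrp2, Plxna4, Slit1 and Epha10, and mutant 4 also holds red ones such as Dcc, Efna4 and Plxnb2.

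Within title letter P the median log2 fold change of the 68 genes was 0.092, and within letter R it was -0.16, while the medians over all genes tested were 0.0013 and 0.037. In 28 of the 68 genes (41.2%) the mutant mean was higher within P and lower within R, a combination found in 20.3% of all genes tested. The opposite combination was found in 8, both letters were higher in 18 and both lower in 14. Among all 15789 genes tested, 3209 were higher within P and lower within R and 3854 the opposite. Both letters were higher in 4719 of them and both lower in 4007. The interaction of genotype and letter, which tests whether the 2 genotype differences are unequal, passed edgeR's adjusted p of 0.05 for 3 of the 68 genes (4.41%), against 3.2% of all genes. At an unadjusted p under 0.05 it was 18 of the 68 (26.5%), against 22.5%. Mutant 4, whose Hox score was lowest, is an R library, and the part of that score in these differences was not tested.

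The 3 genes were a pair of class A plexins and an ephrin-A receptor. Plxna1 (chromosome 6), a co-receptor with neuropilins for class 3 semaphorins, was measured at 226, 257, 184 and 160.2 CPM in mutants 1 to 4, against 216, 199, 284 and 258 CPM in controls 1 to 4. The R mutants were the lowest libraries and the R controls the highest, while the P mutants were above the P controls. Plxna1 had a log2 fold change of 0.22 within P and -0.66 within R (interaction, edgeR adjusted p = 0.0311). Plxna2 (chromosome 1), the receptor that granule cells use to read Sema6a and the first of the printed starts, was measured at 163, 144, 108 and 108 CPM in mutants 1 to 4, against 125, 127, 137 and 139 CPM in controls 1 to 4. The P mutants were above every control and the R mutants below every one. Plxna2 had a log2 fold change of 0.29 within P and -0.35 within R (interaction, edgeR adjusted p = 0.0371). Epha5 (chromosome 5), a receptor for type A ephrins, was measured at 107, 102, 56.9 and 58.8 CPM in mutants 1 to 4, against 98.1, 100.3, 80.0 and 99.4 CPM in controls 1 to 4. The R mutants were far below the other 6 libraries, among which control 3 was the lowest. Epha5 had a log2 fold change of 0.074 within P and -0.63 within R (interaction, edgeR adjusted p = 0.0477).

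The interaction calls were not stable to the loss of a library. No guidance gene passed without mutant 1, mutant 2 or any single control, when between 1 and 39 of all genes did. Without mutant 3 or mutant 4 some guidance genes passed, but 1 R mutant is left there, so only interaction sizes are given. On the log2 scale, the difference within R less that within P was -0.98 for Plxna1, -0.64 for Plxna2 and -0.68 for Epha5 without mutant 3. Without mutant 4 it was -0.78, -0.64 and -0.73. A lone library is assumed there to vary like those of the other groups.

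**Figure D4:**
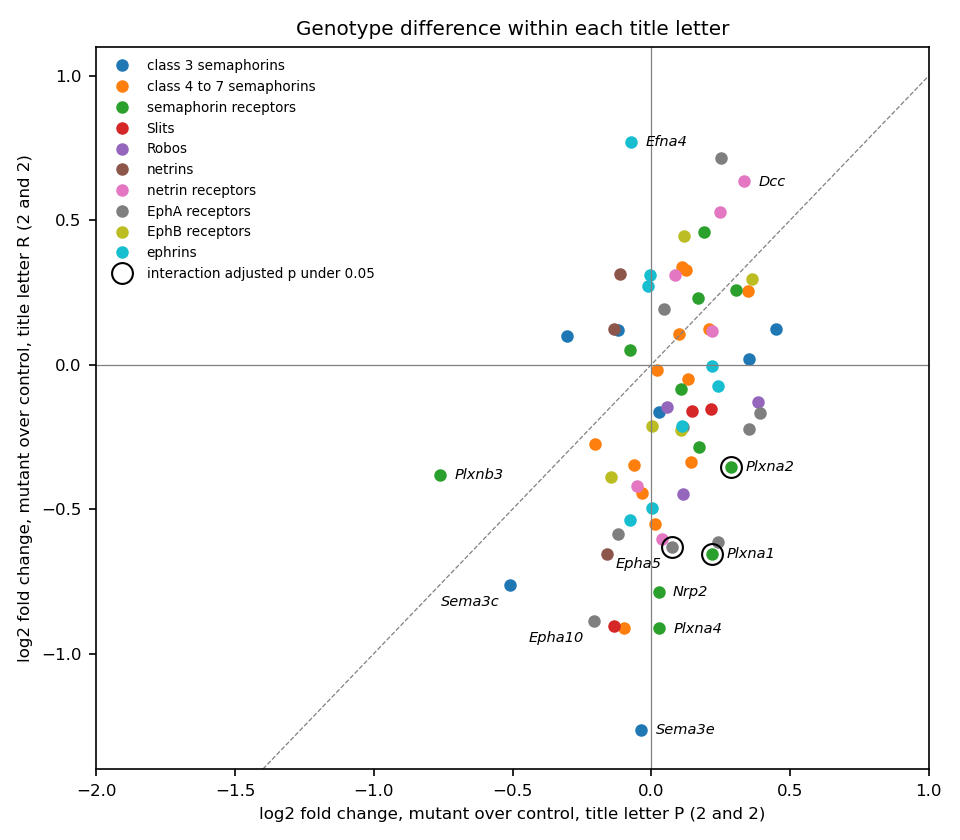
Log2 fold change, mutant over control, within title letter P on the x axis and within R on the y axis, each from 2 mutants and 2 controls, for the 68 tested guidance genes coloured by family; the dashed line marks equal values. More points lie at the lower right (28 genes, higher within P and lower within R) than at the upper left (8 genes). Over all 15789 genes tested these numbers were 3209 and 3854. The 3 ringed genes, Plxna1, Plxna2 and Epha5, passed the interaction test.

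Other genes of the same pathways were followed in a list of 34 other cues, co-receptors and adhesion partners and a list of 57 intracellular effectors. In the first, 12 means were higher and 22 lower in mutants, with a median log2 fold change of -0.094. None passed the edgeR adjusted test, and Kdr, Ryk and Draxin were higher at an unadjusted p under 0.05 (8.82% of the 34, against 6.94% of all genes) while none was lower (against 5.7%). The groups did not overlap for 2 genes, both higher (5.88%, against 3.6% of all genes). At an unadjusted p under 0.05, 5 of the 34 were higher and 6 of the 34 lower without mutant 1 (against 9.52% and 10.5% of all genes). Without control 1 or control 3 there was 1 lower (against 3.58% and 3.04% of all genes). With the Hox score or Xist as a covariate none was higher (against 1.33% and 1.12% of all genes). Draxin, a secreted ligand of DCC, was measured at 168, 174, 215 and 301 CPM in mutants 1 to 4, against 133, 132, 162 and 167 CPM in controls 1 to 4. All 4 mutants were above all 4 controls, by a small margin for mutant 1. Draxin had a log2 fold change of 0.53 (SE 0.18, edgeR adjusted p = 0.381), with 0.37 within title letter P and 0.65 within R. The value for Draxin was 0.32 without mutant 4, 0.27 with the Hox covariate and 0.35 with the Xist covariate. Ryk, a Wnt receptor in axon repulsion, was measured at 66.9, 66.2, 68.6 and 84.3 CPM in mutants 1 to 4, against 52.4, 56.9, 57.6 and 63.8 CPM in controls 1 to 4. It also separated the groups without overlap, and had a log2 fold change of 0.31 (SE 0.11, edgeR adjusted p = 0.381). For Ryk the Hox covariate gave 0.20. Kdr, the VEGF receptor of endothelium that can pair with neuropilins, averaged 75.7 ± 15.03 CPM in mutants and 55.2 ± 7.28 CPM in controls (SD, n = 4 each), and the endothelial list to which it belongs was higher in mean for all 10 genes. Kdr had a log2 fold change of 0.46, and of 0.23 with the Xist covariate.

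Among the 57 effectors 26 means were higher and 31 lower in mutants, the median log2 fold change was -0.0094, and none passed the edgeR adjusted test. At an unadjusted p under 0.05, 3 were higher, Dock1, Ptk2 and Rnd3 (5.26% of the 57, against 6.94% of all genes), and 5 lower, among them Ngef, Rnd1, Limk2 and Cdk5 (8.77%, against 5.7%). The groups did not overlap for 2 higher genes (3.51%, against 3.6% of all genes) and 4 lower ones (7.02%, against 2.96%). At an unadjusted p under 0.05 the counts became 6 of the 57 higher and 10 of the 57 lower without mutant 1 (against 9.52% and 10.5% of all genes). With the Hox score as a covariate they were 0 and 1 (against 1.33% and 0.95% of all genes). The number higher at that p became 1 without mutant 4 or control 1 (against 3.01% and 3.7% of all genes). It was 5 of the 57 without control 2 (against 6.4%), and the number lower was 3 of the 57 without control 3 (against 3.04%). Dock1, a Rac activator downstream of DCC, was measured at 78.5, 86.2, 84.9 and 96.9 CPM in mutants 1 to 4, against 67.8, 72.9, 70.7 and 71.3 CPM in controls 1 to 4. All mutants were above all controls. Ngef, the exchange factor ephexin-1 that acts downstream of EphA receptors, was measured at 37.4, 38.4, 39.0 and 28.4 CPM in mutants 1 to 4, against 48.3, 42.0, 48.3 and 49.998 CPM in controls 1 to 4. All mutants were below all controls, mutant 4 the lowest. Their log2 fold changes were 0.29 for Dock1 (SE 0.087, edgeR adjusted p = 0.381) and -0.40 for Ngef (SE 0.12, edgeR adjusted p = 0.381). With the Hox covariate these were 0.20 for Dock1 and -0.24 for Ngef. Rnd1, a small GTPase that binds plexins, averaged 9.56 ± 3.29 CPM in mutants and 15.7 ± 1.69 CPM in controls (SD, n = 4 each). Limk2, a kinase of cofilin, averaged 121 ± 15.6 CPM in mutants and 149 ± 11.1 CPM in controls (SD, n = 4 each). Cdk5, a neuronal kinase in semaphorin signalling, averaged 76.7 ± 7.50 CPM in mutants and 92.03 ± 7.07 CPM in controls (SD, n = 4 each). Log2 fold changes of Rnd1, Limk2 and Cdk5 were -0.72, -0.31 and -0.26. With the Hox covariate they were -0.34, -0.17 and -0.18, and Rnd1 was at -0.45 with the Xist covariate.

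Exon usage was compared through the deposited counts per exon bin. None of the 65 guidance genes that could be tested had a Simes adjusted p under 0.05 from edgeR's exon test, against 0.00762% of 13125 genes, and none had an unadjusted one under 0.05 either, against 0.213%. The gene-level F test of the same fit also gave 0 of 65, against 0.0229% past its adjusted p and 0.571% past its unadjusted one. Across all genes both exon tests thus called far under 5% at an unadjusted p under 0.05. The absence of calls among the 65 therefore does not show that exon usage was unchanged. The smallest Simes p was 0.0708, for Epha2. There the third bin held 5.64 ± 3.10% of the gene's bin counts in mutants and 10.3 ± 4.17% in controls (SD, n = 4 each), on 5 to 20 reads per library. Nrp1 and Ntn3 lie in bin groups joined with a neighbouring gene, and too few bins of Epha1 and Ntn5 passed the filter, so these 4 were left out.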

How the data were processed

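Polyadenylated RNA of whole cerebella from 8 pups was made into Illumina TruSeq libraries, per the labels' protocols. The authors deposited, for each library, whole-number counts per gene and per exon bin, not normalized. The submitters' processing notes name TopHat, HTSeq, DESeq2 and mm9, with neither versions nor roles. Bin names carry scaffold names of a later build, so no positions from the files are given beyond the chromosome in the bin names. The annotation and the use of strand are not given in the sources used here, so overlapping, antisense and near-identical genes may share reads. The 5 summary lines per gene table, 24.8 to 34.3% of entries, were left out.

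The gene test was run in R 4.3.3 with edgeR 4.0.16 (filterByExpr, TMM factors of 0.986 to 1.01, robust quasi-likelihood F test, two-sided, genotype only), with Benjamini-Hochberg adjustment over 15789 genes and a threshold of 0.05. Levels are CPM on TMM-scaled library sizes, and SEs come from the fold change and F. DESeq2 1.42.0 was an alternative. Exon bins were tested with diffSpliceDGE and Simes' method over 149224 bins of 13125 genes, after leaving out 452 joined bin groups. The title letter was fitted as an interaction and as a block, and the Hox score (mean log2 CPM of 13 Hox genes, prior count 2) and Xist as covariates. The steps were tested on simulated data.

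Genes given with values in every library were those with an unadjusted p under 0.05 or no overlap, the pair with the smallest p in each family, and the interaction calls; Nrp2, Plxna4, Epha4 and Efnb3 were added after their values were seen. From each list of other guidance genes, up to 5 with the smallest p were named, and others only to make up a count. One listed name, Ephexin, had no row. The members, the lists and the tests were chosen with earlier results of these data known. Libraries of a group are separate pups and differed by more than counting noise (chi-square per degree of freedom 7.42 to 81.0). Replicate numbers follow accession order and pair nothing. Promoter windows are RefSeq's, on GRCm38.p6.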

Additional observations from a re-analysis of the deposited data

Results flagged for a closer look

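In 6 of the 136 groups of 4 libraries examined (2 for each of the 68 tested guidance genes), 1 library stood further from the other 3 than Dixon's 95% critical value allows, and chance alone marks about 1 in 20 groups. Mutant 4 was the highest mutant for Epha3, at 26.7 CPM against 18.9 to 20.1 CPM in the other mutants, and for Sema6a, at 281 CPM against 212 to 223 CPM. Mutant 2 was the highest mutant for Robo3, at 7.69 CPM against 4.20 to 4.31 CPM, and mutant 1 the lowest for Plxnd1, at 76.3 CPM against 107 to 112 CPM. Control 3 was the lowest control for Epha5, at 80.0 CPM against 98.1 to 100.3 CPM, and control 2 the lowest for Ephb6, at 33.0 CPM against 43.0 to 44.6 CPM.

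The genotype difference was unequal between title letters P and R by the interaction test for Plxna1, Plxna2 and Epha5, with edgeR adjusted p-values of 0.0311, 0.0371 and 0.0477. For all 3 the difference was positive within P and negative within R. None of the 3 passed without mutant 1, mutant 2 or any single control.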

How the results depend on the processing

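No guidance gene passed the adjusted threshold in edgeR under any alternative run (RLE or upper-quartile scaling, no filter on low counts, the title letter as a block, the Hox or Xist covariates, each library left out) or in DESeq2, and no exon test did with a library left out. No paired analysis was possible because the labels give no replicate numbers shared between the groups. Of 420 fold changes of the 28 named genes under these alternatives, 413 kept their direction and their side of the threshold and 7 changed sign. These were Slit3 without mutant 2 (-0.082), control 2 (-0.040) or control 4 (-0.043) and with the Xist covariate (-0.0029), and Ntn4 without mutant 4 (-0.056) and with the Hox (-0.099) or Xist (-0.0079) covariate. With a library left out Slit3 ran from -0.082 to 0.16 and Ntn4 from -0.056 to 0.21.

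The number of guidance genes at an unadjusted p under 0.05 ran from 1 to 10 higher and from 2 to 14 lower with a library left out. Over all genes the shares ran from 3.01 to 9.52% higher and from 3.04 to 10.5% lower. With the letter block 10 of the 68 guidance genes were higher (against 9.89% of all genes). With the Hox covariate 1 was higher and 0 lower (against 1.33% and 0.95%). With the Xist covariate there were 0 in both directions (against 1.12% and 0.716%). Genes without overlap between groups numbered 0 to 6 higher and 1 to 6 lower with a library left out, and 1 higher under upper-quartile scaling or without the filter. These counts of genes without overlap have no share over all genes beside them. Calls of the interaction ran from 0 to 16 with a library left out, an alternative chosen after seeing the data.

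Among the 11 family medians of the log2 fold change (all 68 genes counted as 1), a value moved by more than the controls' spread 9 times with a library left out. It did so for semaphorin receptors without each of the 4 mutants in turn, for all 68 genes and Robos without mutant 2, for netrin receptors without mutant 4, and for class 3 semaphorins and netrins without control 1. Under the other settings it did so 5 times: the netrin median was -0.22 without the filter, the netrin receptor median 0.083 with the Hox and 0.11 with the Xist covariate, the class 3 semaphorin median -0.16 and the ephrin median 9.5e-06 with the Xist covariate. With a library left out the medians ran from -0.076 to 0.025 for all 68 genes, -0.11 to 0.0083 for class 3 semaphorins, -0.075 to 0.042 for class 4 to 7 semaphorins, -0.16 to 0.030 for EphA receptors, -0.13 to -0.0043 for EphB receptors, 0.046 to 0.13 for ephrins, 0.091 to 0.24 for netrin receptors, -0.12 to 0.12 for netrins, -0.10 to 0.0089 for Robos, -0.13 to 0.050 for semaphorin receptors, -0.13 to 0.091 for Slits. Among the other cues, co-receptors and adhesion partners, 0 were higher at an unadjusted p under 0.05 with either covariate. The number lower was 1 with the letter block (against 8.98% of all genes) and 1 in DESeq2 (against 6.94%). With a library left out, counts ran from 3 to 5 higher and 0 to 6 lower. Over all genes those shares ran from 3.01 to 9.52% higher and 3.04 to 10.5% lower. Among the 57 effectors, 7 of 57 were higher and 9 of 57 lower with the block (against 9.89% and 8.98% of all genes). There were 0 and 1 with the Hox covariate (against 1.33% and 0.95%) and 0 and 0 with Xist (against 1.12% and 0.716%). With a library left out, 1 to 6 effectors were higher and 3 to 10 lower, beside the shares over all genes just given. Sufu passed the threshold in DESeq2, at a log2 fold change of -0.60. With a covariate that differs mostly in mutants 2 or 4, genotype is estimated with few libraries. The cause of each change was not tested. Depth was low for Ntn5, Epha1, Sema3g and Epha2, whose lowest counts in a library were 3, 28, 64 and 66.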
